A study of Homo sapiens with 6 samples.

Results

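The comparison was of SK-N-BE(2)-C cells, an established human neuroblastoma line, treated with E6R against the same line treated with DMSO, the solvent control. The libraries titled E6R and DMSO, 2 of each, made up 4 of the 6 libraries of the series; the other 2 were treated with TSA (trichostatin A, which blocks the catalytic site of histone deacetylases). By its title the series concerns inhibition of an HDAC complex by a non-enzymatic route. The sources used here give neither doses, treatment times nor the structure of E6R. They do not say that the libraries came from separate cultures, so the p-values measure only the spread between these libraries. Transcripts were counted as unique molecular identifiers (UMIs) by Seq-Well S3, in which single cells are caught in small wells with barcoded beads. Barcodes with at least 500 genes and at most 20% mitochondrially encoded UMIs were kept as cells, which gave 11830 of the 17589 cells of the series, and UMIs were summed by library. The genes described are those with a mean of 20 CPM (a gene's UMIs relative to its library's total, adjusted by the TMM factors of edgeR) or more over the 4 libraries in which the E6R libraries lay both above or both below the DMSO pair. There were 3596 such genes among the 7431 genes at that level (48.4%) and the 36601 genes of the matrices. They were 2736 genes higher under E6R (36.8%) and 860 lower (11.6%).

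Histone deacetylases (HDACs) remove acetyl groups from histone tails, and the class I enzymes HDAC1, HDAC2 and HDAC3 work inside corepressor complexes that also hold scaffold and histone-binding subunits. Inhibitors of the enzymatic site raise histone acetylation and shift the expression of large sets of genes. Neuroblastoma arises from the sympathoadrenal lineage, and this line carries an amplified MYCN gene, whose product drives growth and ribosome production.

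The DMSO libraries held 1861 and 3132 cells and 4206366 and 4793493 UMIs; the E6R libraries held 2891 and 3946 cells and 15781024 and 26180262 UMIs, so the controls were the shallower group. Median UMIs per cell were 1268 and 1053.5 for DMSO and 1880 and 1124 for E6R, and 22.9% of the UMIs of E6R replicate 2 came from its 1% of deepest cells. Some cell barcodes of 12 bases occurred in more than 1 library: 17 and 60 cells of DMSO and 43 and 100 cells of E6R, which carried 0.427%, 1.97%, 6.01% and 16.2% of the UMIs. DMSO replicate 2 and E6R replicate 2 shared 58 cell barcodes, where chance placement would give 0.737. Without these cells 2505 genes were higher and 885 lower; without the 1% of cells with most UMIs the counts were 2659 and 845. The adrenergic neuroblastoma markers PHOX2A, HAND2, GATA3, ISL1, DBH, TH, CHGA and STMN2 were all present, with 143 to 30420 UMIs in each of the 4 libraries. SOX10, which defines Schwann cells, had 0, 0, 0 and 2 UMIs in DMSO 1, DMSO 2, E6R 1 and E6R 2. The endothelial gene PECAM1 had 102 and 438 UMIs in the libraries numbered 1, and 6 and 10 in those numbered 2, and CDH5 had 80 and 424 against 7 and 5 and so followed the replicate number; their part in the results was not tested. The 5 blood markers together had 2 to 16 UMIs per library.

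No gene passed edgeR's quasi-likelihood test for E6R against DMSO at a Benjamini-Hochberg adjusted p of 0.05 (0 of 16763, 0%). Unadjusted, 2913 genes (17.4%) had a p under 0.05, and DESeq2 called 361, of which 252 were higher and 109 lower. Nothing below is therefore called a change; genes are described by their values in each library. For a single value, 2 libraries against 2 cannot give an exact two-sided permutation p below 0.3333.

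The differences were small and mostly in 1 direction. Of the 3596 genes, 71.2% had a fitted difference under 1.5-fold, 80 were higher by 2-fold or more and 38 were lower by 2-fold or more. The median log2 fold change was 0.46 for the higher genes and -0.39 for the lower ones, 0.19 over all genes of 20 CPM or more and 0.03 over all genes tested. Among the higher genes 1061 had an unadjusted p under 0.05, and among the lower ones 238. The rule had already picked these genes for lying apart, so the counts are no separate support. The split depended on the scaling. With TMM 76.1% of the genes apart were higher; with total counts alone it was 57.1% (1922 higher and 1446 lower), after thinning all libraries to the depth of the shallowest it was 62.4% (2085 and 1257), and with each cell thinned to 1000 UMIs 56.1% (1582 and 1237). Total counts moved the median of all genes tested from 0.03 to -0.10. Of all genes at 20 CPM or more, 36.8% were higher and 11.6% lower with TMM, and 25.3% and 19.0% with total counts alone. With each cell thinned to 1000 UMIs the shares were 21.4% and 16.7%. The counts in the gene lists below stand beside these shares. At the edge of the rule, RRAS had a mean of 20.01 CPM and was lower (23.8 and 27.2 CPM under DMSO, 16.996 and 12.1 under E6R), and ZNF101, with a mean of 19.998 CPM, fell just outside it with overlapping groups.

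TFRC encodes the transferrin receptor, through which cells take up iron, and had the smallest p of all genes. It had 55.7 and 47.4 CPM in the DMSO libraries and 314 and 385 CPM in the E6R libraries. The log2 fold change was 2.76 (SE 0.24, edgeR adjusted p = 0.0533). Under TSA it had 198 and 262 CPM, and E6R and TSA differed by 0.60 on the log2 scale (edgeR adjusted p = 0.0652). Over 21 alternative settings the log2 fold change of TFRC lay between 2.44 and 3.01. It passed in some settings and not in others, and its edgeR adjusted p was 0.337 with only the 4 DMSO and E6R libraries. The smallest value came from the 4 libraries with the replicate block, a fit chosen after seeing the data, and is not printed. TFRC lies on the minus strand of GRCh38 chr3:196027183-196082189. Its mRNA is known for iron-responsive elements (IREs), hairpins in the untranslated region after the coding sequence that iron regulatory proteins bind to protect the mRNA from decay when iron is scarce; the ferritin mRNAs carry 1 such hairpin before the coding sequence, where binding blocks translation. A search for a C, a stem of 5 bases, the loop CAGTGN and the 5 bases that pair with the stem (G to T pairs allowed, transcript strand only) was run on 1 GENCODE 29 transcript for each of 7428 genes of 20 CPM or more. It found 132 genes with a match (1.78%), and TFRC, with 4, was the only gene with 3 or more. The matches in TFRC, FTH1 and FTL are shown because the number of matches was highest in TFRC; the loop is in capitals, and each is 5′ to 3′ on the transcript strand, with GRCh38 coordinates.
TFRC element at chr3:196050985-196051001: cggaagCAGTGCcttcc
TFRC element at chr3:196050581-196050597: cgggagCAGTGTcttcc
TFRC element at chr3:196050516-196050532: cggagaCAGTGAtctcc
TFRC element at chr3:196050469-196050485: cgggaaCAGTGTttccc
FTH1 element at chr11:61967580-61967596: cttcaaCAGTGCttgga
FTL element at chr19:48965341-48965357: cttcaaCAGTGTttgga

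Other genes of iron handling differed less. Of 16 such genes at 20 CPM or more, 8 were higher and 0 lower, with a median of 0.36. The counts depended on the scaling. With total counts alone 5 of 17 were higher (29.4%) and 1 lower, beside 25.3% and 19.0% of all genes. With each cell thinned to 1000 UMIs 3 of 16 were higher (18.8%) and 2 lower, beside 21.4% and 16.7% of all genes. SLC11A2, which carries iron across membranes, had 38.2 and 30.8 CPM under DMSO and 44.1 and 63.7 under E6R. FBXL5, the sensor that removes an iron regulatory protein when iron is plentiful, had 22.9 and 23.5 CPM against 36.7 and 35.4. NCOA4, the receptor for ferritin breakdown, had 104 and 84.9 CPM against 164 and 117. The ferritin gene FTH1 had 704 and 675 CPM under DMSO and 1098 and 711 under E6R (0.39), so that E6R replicate 2 lay close to the DMSO libraries. FTL, the other ferritin gene, had 388 and 350 against 400 and 250 (-0.18), with overlapping groups. IREB2, which encodes an iron regulatory protein, had 79.2 and 55.1 CPM against 107 and 67.4, which also overlapped. Of the 132 genes with a match to the hairpin pattern, 34 were higher (25.8%) and 17 lower (12.9%), beside 36.8% and 11.6% of all genes at 20 CPM or more.

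The other genes with the smallest p among the higher ones, which the rule had picked for not overlapping, had an edgeR adjusted p of 0.205. BZW2, a regulator of translation start, had 103 and 68.1 CPM under DMSO and 216 and 227 under E6R, a log2 fold change of 1.37 (SE 0.24). XPR1, a phosphate exporter, had 82.2 and 66.7 CPM against 163 and 156 (1.10, SE 0.19). STARD4, a carrier of cholesterol, had 41.4 and 45.3 CPM against 86.8 and 88.0 (1.01, SE 0.18), and TSA gave 88.5 and 90.6. KCNAB1, an auxiliary subunit of voltage-gated potassium channels, had 77.3 and 40.9 CPM against 194 and 195 (1.72, SE 0.30). These genes had close values in the E6R libraries, while KCNAB1 and BZW2 spread more between the DMSO libraries.

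Several of the highest fold changes belonged to genes that TSA lowered. KCNAB1 had 5.85 and 4.44 CPM under TSA, and E6R lay above TSA by 5.24 on the log2 scale (edgeR adjusted p = 0.000232). CLMP, a cell adhesion molecule, had 30.0 and 36.0 CPM under DMSO, 71.1 and 112 under E6R and 4.25 and 4.61 under TSA. SCAT8, annotated as an antisense RNA within EYS, had 12.5 and 6.69, 37.7 and 42.6, and 1.52 and 0.784 CPM in the same order. CRH, which encodes corticotropin-releasing hormone, had 10.2 and 13.01, 32.4 and 68.8, and 3.72 and 3.31 CPM. Each of CLMP, SCAT8 and CRH differed between E6R and TSA at an edgeR adjusted p of 0.001 or less, in a comparison that called 38.2% of all genes; TSA against DMSO, which shares the DMSO libraries, called 29.7%. ENPP2, the enzyme autotaxin, was highest under TSA: 19.1 and 33.9 CPM under DMSO, 65.1 and 113 under E6R, 198 and 208 under TSA. The remaining genes with the highest fold changes spread widely between the E6R libraries. DGKI, a diacylglycerol kinase, had 14.4 and 4.78 CPM against 66.2 and 17.5. SGK1, a serum- and glucocorticoid-induced kinase, had 17.2 and 9.18 CPM against 55.7 and 30.3. CD9, a tetraspanin of the cell surface, had 85.2 and 40.9 CPM against 260 and 93.8, and DEPTOR, an inhibitor of mTOR, had 32.7 and 15.5 against 83.3 and 48.2. In each of these 4 genes the libraries numbered 1 were higher than those numbered 2 within both treatments.

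**Figure D1:**
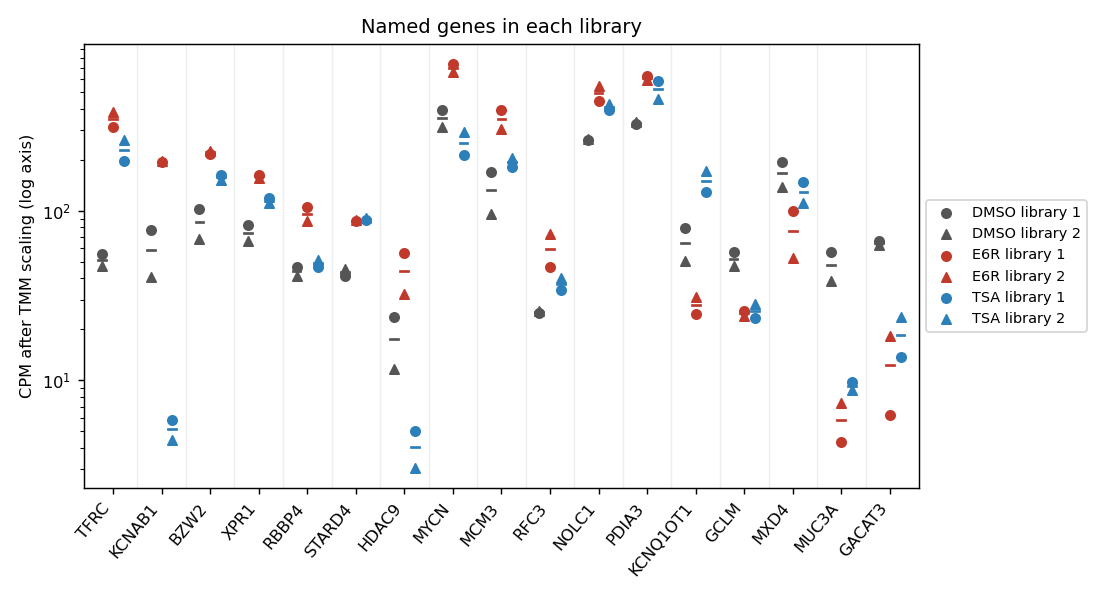
CPM on a log axis for 17 of the genes named in the text, with 1 symbol per library (circles, replicate 1; triangles, replicate 2) and a short line at the mean of each treatment. E6R lies above DMSO without overlap from TFRC (314 and 385 against 55.7 and 47.4 CPM) to PDIA3 and below it from KCNQ1OT1 to GACAT3, while TSA is at 5.85 and 4.44 CPM for KCNAB1.

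Outside the mitochondrial genome the lowest fold changes were those of MUC3A, AC073140.1 and a pair of lincRNAs. MUC3A, a membrane mucin (chr7:100949555-100968346, plus strand), had 57.4 and 38.8 CPM under DMSO and 4.36 and 7.37 under E6R, a log2 fold change of -3.02 (SE 0.35, edgeR adjusted p = 0.147). AC073140.1, which is not in GENCODE 29, had 51.4 and 39.4 CPM against 7.27 and 1.99. The lincRNAs lay near MYCN (chr2:15940564-15947007, plus strand). GACAT3 (chr2:16050427-16085801, plus strand) had 66.1 and 63.3 CPM against 6.25 and 18.4, and AC010745.2 (chr2:16224047-16333978, plus strand) had 41.6 and 46.1 against 6.44 and 11.1. MYCN itself was higher, with 394 and 313 CPM under DMSO and 733 and 657 under E6R (0.98, SE 0.23, edgeR adjusted p = 0.205). Its coding neighbours DDX1, an RNA helicase, and NBAS, a vesicle transport factor, had 314 and 337 against 442 and 388 CPM and 58.4 and 53.2 against 72.1 and 60.7. Low values of GACAT3 and AC010745.2 stood beside higher values of MYCN. The log2 fold changes of DDX1 (0.35) and NBAS (0.25) were closer to the median of all genes at 20 CPM or more (0.19). Under TSA GACAT3 had 13.7 and 23.5 CPM and AC010745.2 8.05 and 12.6, near those of E6R.

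All 13 protein genes of the mitochondrial genome were lower under E6R, where 11.6% of genes of that abundance were. These genes encode subunits of respiratory complexes I, III, IV and the ATP synthase. Their summed share of UMIs was 5.83% and 6.20% in the DMSO libraries and 1.55% and 1.51% in the E6R libraries (6.01% ± 0.264 and 1.53% ± 0.028, SD, n = 2; exact permutation test, two-sided, p = 0.3333). TSA libraries had 6.08% and 9.71%. MT-ND4, a subunit of complex I, had 14626 and 10503 CPM against 1813 and 2110 (-2.68, SE 0.31, edgeR adjusted p = 0.147). MT-ATP6, of the ATP synthase, had 8643 and 9365 CPM against 2446 and 1892 (-2.05, SE 0.30). MT-CO1, of complex IV, had 4741 and 7892 against 1566 and 1774 (-1.92, SE 0.36). MT-CYB, of complex III, had 1934 and 2738 against 1036 and 589 (-1.52, SE 0.37). The smallest difference was that of MT-ND2, with 2775 and 2786 CPM against 1534.5 and 1252 (-0.997, SE 0.28). MT-ND6, the only one of the 13 encoded on the opposite strand of the circle, had the largest: 500.3 and 281 CPM against 23.3 and 38.04 (-3.67, SE 0.46). The make-up of the mitochondrially encoded UMIs differed too. MT-ND4 made up 28.1% and 18.5% of the mitochondrially encoded UMIs under DMSO and 11.7% and 14.2% under E6R. MT-ND2 made up 5.33% and 4.90% against 9.91% and 8.41%, and MT-CO3 9.07% and 11.7% against 14.0% and 15.9%. The TSA libraries differed from DMSO in the same direction for each of these genes. Under TSA MT-ND4 made up 14.4% and 13.1%, MT-ND2 7.45% and 7.34%, and MT-CO3 14.8% and 15.5%. MT-ND6 had 85.0 and 174 CPM under TSA, also below both DMSO libraries. Each of the 13 genes was lower under E6R than under TSA by edgeR (adjusted p from 0.000637 to 0.00755). That comparison called 38.2% of all genes. MT-ND6 did not pass in every setting, and with each cell thinned to 1000 UMIs its edgeR adjusted p was 0.0644.

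**Figure D2:**
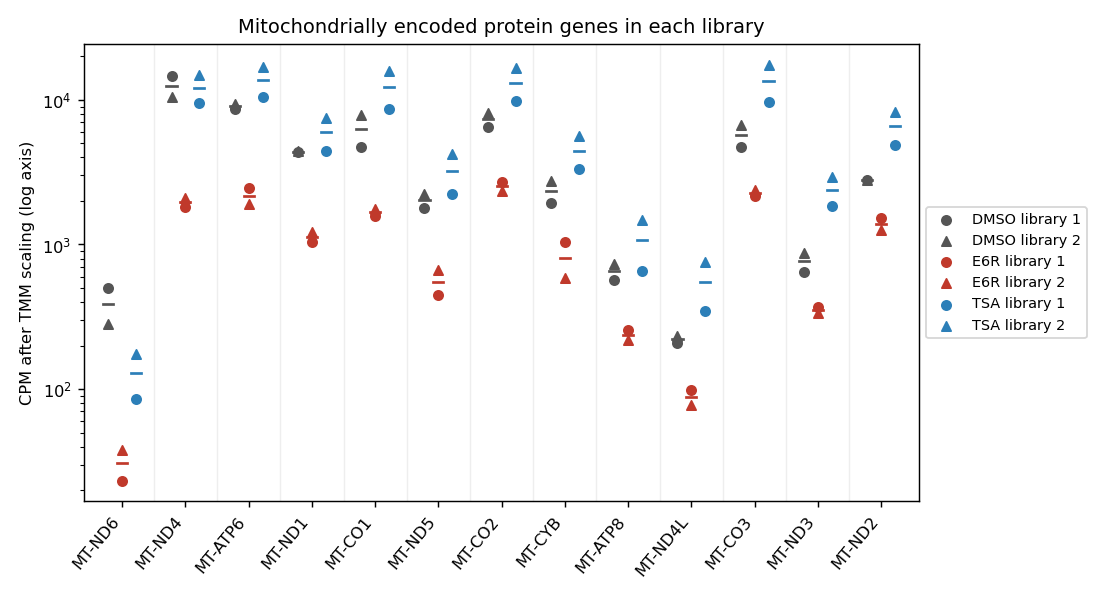
CPM on a log axis for the 13 protein genes of the mitochondrial genome, ordered by log2 fold change, with 1 symbol per library and a short line at each treatment's mean. Both E6R libraries lie below both DMSO libraries for every gene, from MT-ND6 (23.3 and 38.04 CPM against 500.3 and 281) to MT-ND2 (1534.5 and 1252 against 2775 and 2786).

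The lower share was found at every depth of the cells. In cells of 500 to 1000 UMIs the median share was 7.04% and 6.83% for DMSO and 2.09% and 2.67% for E6R. In cells of 1000 to 2000 UMIs it was 7.37% and 6.50% against 2.28% and 2.74%, and in those of 2000 to 5000 UMIs 5.93% and 5.39% against 2.06% and 2.53%. In cells of 5000 UMIs or more it was 2.37% and 4.15% against 1.12% and 0.802%. The library medians of the groups did not overlap in any class, but their cells did. At 500 to 1000 UMIs the 10th percentile was 3.12% and 3.64% for DMSO, and the 90th was 5.53% and 5.46% for E6R. In the deepest class the DMSO medians lay further from each other than DMSO replicate 1 did from E6R replicate 1. In all deposited barcodes, without a cell filter, the shares were 7.57% and 7.44% for DMSO and 1.89% and 2.02% for E6R. Without cells whose barcode was in another library they were 5.85% and 6.30% against 1.61% and 1.65%.

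**Figure D3:**
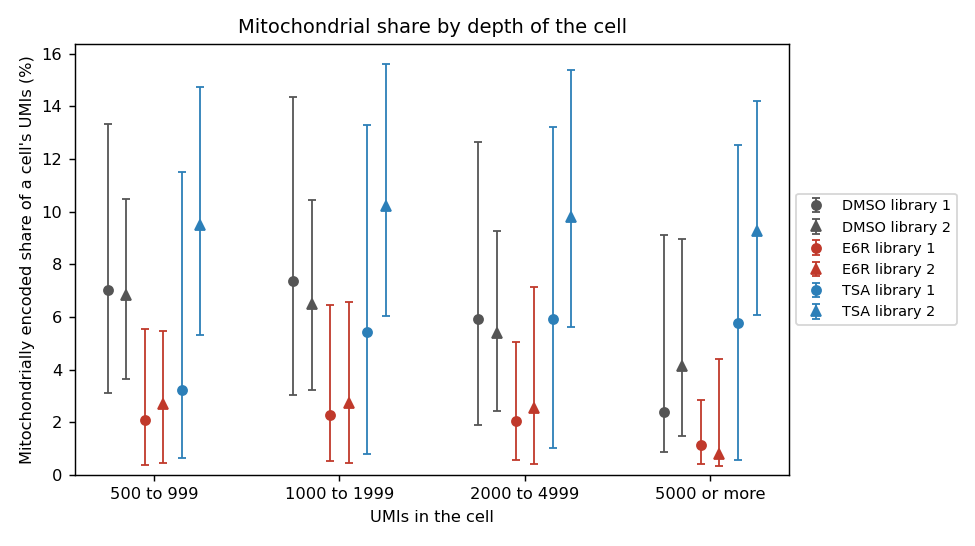
Share of a cell's UMIs from mitochondrially encoded genes (percent) in 4 classes of cell depth, for each library; symbols are medians over cells and bars run from the 10th to the 90th percentile. The E6R medians lie between 0.802% and 2.74% and below both DMSO medians (2.37% to 7.37%) in each class.

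Nuclear genes for the same respiratory complexes did not share the direction. Of 74 nuclear-encoded subunits, 50 were higher (67.6%) and 0 lower, beside 36.8% and 11.6% of all genes at 20 CPM or more. The median log2 fold change was 0.37. With total counts alone 32 were higher (43.2%) and 0 lower, beside 25.3% and 19.0% of all genes. With each cell thinned to 1000 UMIs 23 were higher (31.1%) and 1 lower, beside 21.4% and 16.7%. NDUFA12 and NDUFB4, subunits of complex I, had 68.2 and 79.0 CPM under DMSO against 135 and 120 under E6R, and 117 and 124 against 210 and 196. UQCRH, of complex III, had 205 and 294 against 423 and 418. Of 21 genes for the upkeep of mitochondrial DNA and RNA 14 were higher (66.7%) and 1 lower, with a median of 0.45. With total counts alone 11 were higher (52.4%) and 1 lower, and with thinned cells 8 (38.1%) and 2. MTPAP, which adds the tails of mitochondrial mRNAs, had 18.3 and 14.0 CPM against 34.5 and 30.5. SSBP1, the single-stranded DNA-binding protein of the organelle, had 184 and 177 against 344 and 311, and LRPPRC, which stabilises mitochondrial mRNAs, had 213 and 212 against 418 and 295. POLG, the mitochondrial DNA polymerase, was the lower one, with 61.2 and 91.0 CPM against 57.5 and 46.4. None of these differences passed the test.

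Genes of DNA replication were mostly higher. Of 45 at 20 CPM or more, 34 were higher and 1, POLE, lower, with a median of 0.60 beside 0.19 for all genes of that level. MCM3, a subunit of the replicative helicase, had 169 and 96.4 CPM under DMSO and 393 and 305 under E6R (1.40, SE 0.29). MCM2, of the same helicase, had 88.0 and 68.5 against 142 and 140. RFC3, a subunit of the clamp loader, had 25.1 and 25.8 CPM against 46.4 and 72.6 (1.23, SE 0.27). PCNA, the sliding clamp, had 98.6 and 98.7 against 168 and 204. RPA3, of the single-strand binding complex, had 42.1 and 52.6 against 96.9 and 99.0, and GINS1, which joins the helicase, had 46.5 and 29.8 against 73.2 and 79.3. The edgeR adjusted p of these genes was 0.205. With total counts alone 30 of 46 were higher and 1 lower (median 0.48), and with each cell thinned to 1000 UMIs 29 of 44 were higher and 0 lower (0.45), where all genes of that level had medians of 0.05 and 0.04.

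The promoters of these genes are known as targets of E2F factors. The 250 bases before each RefSeq start (GRCh38.p14) were searched on both strands for TTTCCCGC, TTTCGCGC, TTTGCCGC and TTTGGCGC, the forms of the E2F site; forms that overlap were counted separately. Of the 7431 genes, 6171 (83.0%) had a promoter in the RefSeq table. A match in any of a gene's promoters was held by 15 of 37 replication genes (40.5%) and by 391 of the 6171 genes (6.34%). Over all genes of the RefSeq table it was held by 928 of 27305 (3.40%). Of the genes higher under E6R 7.46% held a match, of the lower ones 5.75% and of the overlapping ones 5.65%. A match is a run of letters and not evidence of binding. The promoters of the 4 higher replication genes with a match and the highest fold changes are shown to let the site be seen in its place; matches are in capitals, and each runs 5′ to 3′ on the strand of the gene up to the base before its start. The first match begins 174 bases before the start in MCM3, 55 in RFC3, 59 in PCNA and 66 in TIPIN, which encodes a partner of the replication fork.
MCM3, chr6:52284743-52284992, minus strand: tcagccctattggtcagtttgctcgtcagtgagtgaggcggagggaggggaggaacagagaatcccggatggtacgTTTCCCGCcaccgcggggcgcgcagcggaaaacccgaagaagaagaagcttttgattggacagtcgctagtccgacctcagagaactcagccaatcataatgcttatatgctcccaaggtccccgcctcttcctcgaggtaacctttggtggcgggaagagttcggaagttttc
RFC3, chr13:33817899-33818148, plus strand: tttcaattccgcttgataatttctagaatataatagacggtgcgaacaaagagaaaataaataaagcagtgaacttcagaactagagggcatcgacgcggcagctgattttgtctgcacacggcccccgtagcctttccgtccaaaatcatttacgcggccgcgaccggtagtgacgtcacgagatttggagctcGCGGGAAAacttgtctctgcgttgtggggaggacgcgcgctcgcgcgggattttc
PCNA, chr20:5126623-5126872, minus strand: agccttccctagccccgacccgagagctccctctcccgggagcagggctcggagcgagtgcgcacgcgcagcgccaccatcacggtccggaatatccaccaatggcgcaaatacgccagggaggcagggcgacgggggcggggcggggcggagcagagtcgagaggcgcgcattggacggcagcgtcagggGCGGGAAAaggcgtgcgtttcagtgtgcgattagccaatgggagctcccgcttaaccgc
TIPIN, chr15:66356686-66356935, minus strand: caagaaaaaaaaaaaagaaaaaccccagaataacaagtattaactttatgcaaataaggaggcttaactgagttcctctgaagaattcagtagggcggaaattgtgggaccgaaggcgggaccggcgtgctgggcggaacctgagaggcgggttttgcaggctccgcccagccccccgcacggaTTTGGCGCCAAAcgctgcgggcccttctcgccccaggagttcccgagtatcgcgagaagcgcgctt

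Other genes of the cell cycle and of nucleotide supply were described in the same way. Nucleotide and one-carbon synthesis had 20 of 27 genes higher and 1 lower (median 0.61): MTHFD1, a folate enzyme, had 138 and 121 CPM against 237 and 258, PSAT1, of serine synthesis, 59.9 and 60.4 against 115 and 111, and DUT, which keeps dUTP out of DNA, 136 and 181.5 against 246 and 346. The 22 genes of G1 cyclins, kinases, E2F and RB had 13 higher (59.1%) and 0 lower (0.31). With each cell thinned to 1000 UMIs 7 were higher (31.8%) and 2 lower. The 42 mitosis genes had 23 higher (54.8%) and 3 lower (0.26), and 16 (38.1%) and 4 with thinned cells. Of all genes 36.8% were higher, and 21.4% with thinned cells. CDK1, the mitotic kinase, had 56.1 and 49.5 CPM against 82.8 and 95.0, whereas MKI67, a marker of dividing cells, was lower, with 738 and 694 against 567 and 626. Of 18 histone genes 7 were higher (38.9%, near the share of all genes) and 0 lower (0.37). HIST1H4C had 177 and 303 CPM against 464 and 747 and HIST1H1D 64.2 and 117 against 202.5 and 197.

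Genes that build and run ribosomes were higher as well. Of 41 nucleolar genes of ribosome assembly 32 were higher and 0 lower, with a median of 0.46. NOLC1, a nucleolar phosphoprotein, had 262 and 264 CPM under DMSO and 447 and 543 under E6R (0.91, SE 0.20). NPM1, nucleophosmin, had 939 and 1055 against 1780 and 1734, and NOP10, of the pseudouridine-forming particles, 44.8 and 70.4 against 115 and 94.9. Of 78 cytosolic ribosomal protein genes, 46 were higher and 0 lower (0.44); RPS7 had 735 and 843 CPM against 1701 and 1280. Ribosomal protein genes have many near-identical pseudogenes, so reads may have been split between copies. SR proteins and hnRNPs, which bind and splice pre-mRNA, had 24 of 28 genes higher and 0 lower (0.55). SRSF3 had 279 and 222 CPM against 503 and 403, and HNRNPF 87.5 and 84.5 against 169 and 140. With each cell thinned to 1000 UMIs the counts were 20 of 41 for nucleolar genes, 38 of 78 for ribosomal proteins (1 lower) and 16 of 28 for SR proteins and hnRNPs, beside 1582 of 7393 genes.

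Of 18 genes of the endoplasmic reticulum response 11 were higher (61.1%) and 0 lower (0.52), beside 36.8% and 11.6% of all genes. With each cell thinned to 1000 UMIs 10 were higher (55.6%) and 1 lower, beside 21.4% and 16.7% of all genes. PDIA3 and PDIA6, which form disulfide bonds, had 325 and 333 CPM against 621 and 589 and 391 and 377 against 677 and 720. CALR, calreticulin, had 508 and 608 against 784 and 1084. Of 20 heat shock chaperones 13 were higher (65%) and 1 lower (0.41). With thinned cells 10 of 19 were higher (52.6%) and 2 lower. Among the higher ones were the mitochondrial HSPE1 (257 and 376 against 537 and 549) and HSPA9 (239 and 306 against 429 and 437). Of 23 redox genes 11 were higher (47.8%) and 4 lower (17.4%), with a median of 0.22. With total counts alone 8 were higher (34.8%) and 5 lower (21.7%), beside 25.3% and 19.0% of all genes. With each cell thinned to 1000 UMIs 2 were higher (8.7%) and 4 lower (17.4%), beside 21.4% and 16.7% of all genes. GCLM, a subunit of the enzyme that starts glutathione synthesis, had 57.6 and 47.0 CPM against 25.8 and 24.1 (-1.07, SE 0.22), while the peroxidase PRDX3 of mitochondria had 42.7 and 48.0 against 106 and 66.9 and TXN, thioredoxin, 85.6 and 141 against 180 and 193. Of 28 genes of cholesterol and fatty acid synthesis 14 were higher and 2 lower (0.31), FDPS among them with 174 and 172 CPM against 276 and 298. With total counts alone 6 of the 28 were higher (21.4%, beside 25.3% of all genes), and with thinned cells 7 of 27 (25.9%, beside 21.4%).

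**Figure D4:**
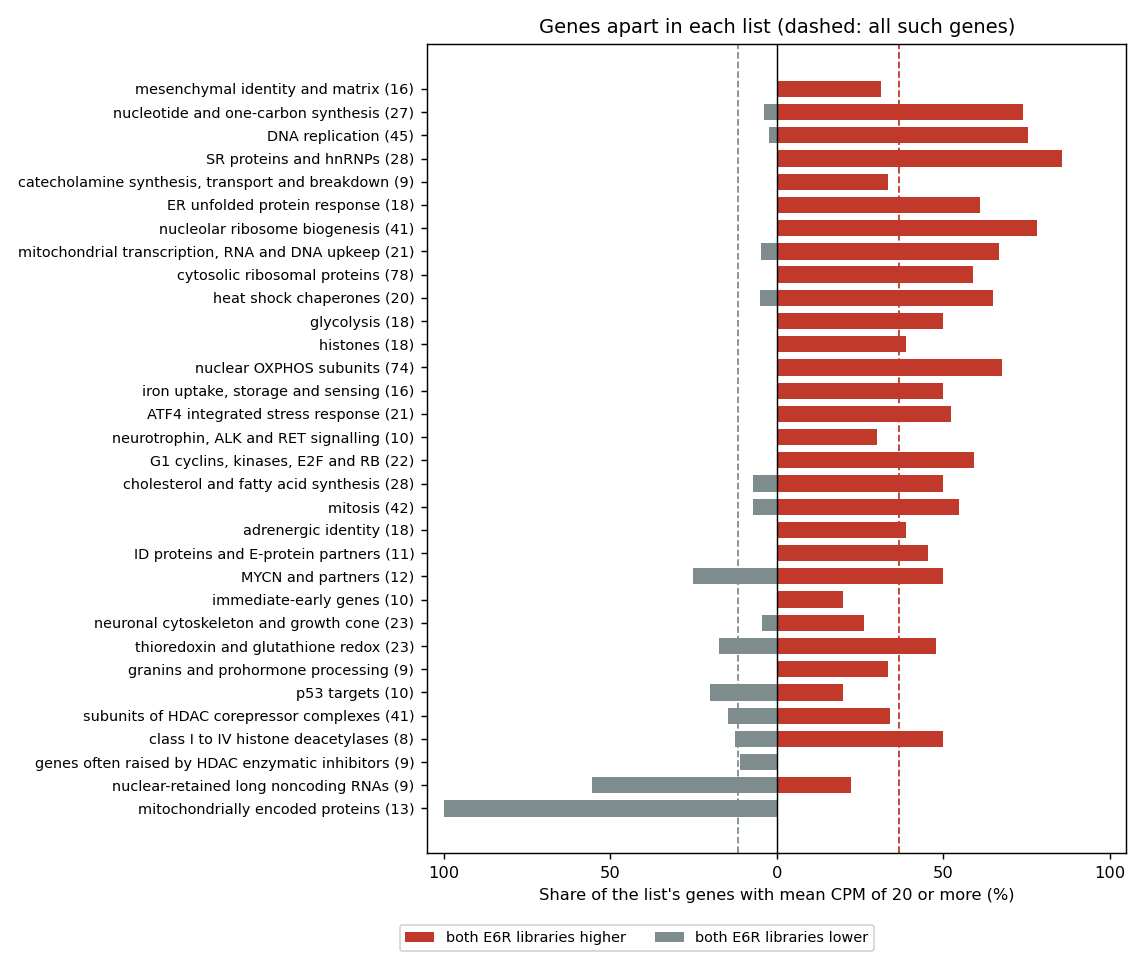
For each gene list with at least 8 genes at 20 CPM or more (number in brackets), the percent of those genes with both E6R libraries above (red, right) or below (grey, left) both DMSO libraries; dashed lines mark the 36.8% and 11.6% of all 7431 genes. Lists are ordered by median log2 fold change; the mitochondrially encoded genes stand at 100% lower and the SR proteins and hnRNPs at 85.7% higher.

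The HDAC genes and the subunits of their complexes held both higher and lower genes. Of 8 HDAC genes at 20 CPM or more 4 were higher (50%) and 1 lower (12.5%), beside 36.8% and 11.6% of all genes. The median of these 8 genes was 0.08, and it was -0.05 with total counts alone and -0.07 with thinned library sums. HDAC1 had 66.3 and 51.8 CPM under DMSO and 74.3 and 78.2 under E6R (0.37, SE 0.20), and HDAC2 had 240 and 184 against 343 and 289 (0.58, SE 0.21). HDAC9, a class IIa enzyme, had 23.6 and 11.7 CPM against 56.5 and 32.1 (1.33, SE 0.43), and 5.01 and 3.05 under TSA. Of 41 other subunits of HDAC corepressor complexes 14 were higher (34.1%) and 6 lower (14.6%), near the 36.8% and 11.6% of all genes. Their median was 0.10. With total counts alone 10 of 42 were higher (23.8%) and 9 lower (21.4%), beside 25.3% and 19.0% of all genes, with a median of -0.02. RBBP4, a histone-binding subunit of several of these complexes, had 47.0 and 41.1 CPM against 105.2 and 86.9 (1.12, SE 0.20), and TSA gave 46.8 and 51.5. SAP30, of the SIN3 complex, had 24.2 and 27.0 against 54.0 and 42.6, and KDM1A, the demethylase of the CoREST complex, 98.2 and 104.6 against 162 and 160. CORO2A, of the NCoR complex, was lower with 530 and 507 CPM against 265 and 413, and had 102 and 123 under TSA.

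Genes that HDAC enzymatic inhibitors often raise showed no common shift under E6R. Of 9 such genes at 20 CPM or more 0 were higher and 1 was lower, beside 36.8% and 11.6% of all genes. The median was 0.02, and it was -0.11 with total counts alone and -0.18 with cells thinned to 1000 UMIs. H1F0, the linker histone H1.0, had 55.9 and 85.3 CPM under DMSO, 70.7 and 75.2 under E6R and 891 and 1489 under TSA. The log2 fold change of H1F0 was 0.05 (SE 0.30) for E6R against DMSO, and E6R lay below TSA with an edgeR adjusted p of 0.000399. The lower gene was SQSTM1, an autophagy receptor, with 257 and 238 CPM against 230 and 181.

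The MYCN network held both higher and lower genes. MAX, the partner through which MYCN binds DNA, had 40.6 and 52.98 CPM under DMSO and 55.0 and 55.3 under E6R. MXD4 and MXD3, repressors that compete for MAX, had 194 and 139 against 99.4 and 52.5 CPM and 32.5 and 58.9 against 25.8 and 29.6, and MLXIP, a glucose-responsive factor of the same network, had 77.8 and 48.8 against 48.2 and 26.5. Over the list of 12, 6 were higher (50%) and 3 lower (25%), with a median of 0.24, beside 36.8% and 11.6% of all genes. With total counts alone 4 were higher (33.3%) and 3 lower, with a median of 0.11, beside 25.3% and 19.0% of all genes. With each cell thinned to 1000 UMIs 4 of 11 were higher (36.4%) and 2 lower (18.2%), beside 21.4% and 16.7%. MYCN under TSA had 215 and 291 CPM, and E6R lay above TSA by 1.46 on the log2 scale (edgeR adjusted p = 0.00273).

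Of 18 adrenergic identity genes 7 were higher (38.9%, beside 36.8% of all genes) and 0 lower (0.26). With each cell thinned to 1000 UMIs 2 were higher (11.1%, beside 21.4%) and 2 lower. Among the 7 were ISL1 at 54.4 and 62.2 CPM against 88.7 and 125 and TFAP2B at 76.9 and 108 against 119 and 223. STMN2 was another, at 317 and 298 against 540 and 589. DDC, which makes dopamine, had 329 and 262 CPM against 660 and 540 (1.02, SE 0.22) and 110 and 92.8 under TSA. SCG2, a granin of secretory vesicles, had 470 and 922 against 1269 and 1763 (1.12, SE 0.34). Of 23 genes of the neuronal cytoskeleton 6 were higher (26.1%, below the 36.8% of all genes) and 1 lower (0.23). With thinned cells 4 were higher and 3 lower. DCX had 25.3 and 17.8 CPM against 41.8 and 51.8. Of 16 mesenchymal genes 5 were higher (31.3%, below the 36.8% of all genes) and 0 lower. This was so although their median was 0.64, since the libraries numbered 1 and 2 differed widely in many of them. LGALS1, a galectin, had 258 and 283 CPM against 620 and 341.

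More long noncoding RNAs were lower than higher: of 113 at 20 CPM or more 26 were higher and 32 lower (28.3% lower), against 37.1% higher and 11.1% lower for 7302 protein-coding genes. KCNQ1OT1, the nuclear antisense RNA of the KCNQ1 imprinted region, had 79.2 and 50.9 CPM under DMSO, 24.6 and 31.2 under E6R and 129 and 173 under TSA; E6R against DMSO gave -1.22 (SE 0.28) and E6R against TSA an edgeR adjusted p of 0.000874. MALAT1, retained in nuclear speckles, had 1519 and 2162 CPM against 1063 and 1488. The snoRNA host genes GAS5 and SNHG1, whose spliced RNAs reach the cytoplasm, were higher, with 116 and 87.0 against 181 and 182 CPM and 37.2 and 26.01 against 43.4 and 53.7. A list meant for nuclear noncoding RNAs, with 9 genes at 20 CPM or more, also held GAS5. Without the 1% of cells with most UMIs this list had 2 higher and 2 lower in place of 2 and 5. Without cells whose barcode was in another library it had 2 and 2, and with cells thinned to 1000 UMIs 2 and 0.

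The shares of higher and lower genes differed with base composition, which the rule did not use. Nuclear genes were split into 4 classes of equal size by transcript GC content. In the class with the lowest content (30.2% to 41.7%), 52.4% were higher and 6.04% lower, with a median log2 fold change of 0.32. In the class with the highest (55.8% to 74.5%) 18.7% were higher and 19.3% lower, with a median of 0.00. The median GC content was 44.2% in the higher genes, 53.9% in the lower ones and 49.5% in the overlapping ones. The median CPM of the 4 classes was similar, 54.3 to 61.3. The replication, nucleolar and SR and hnRNP lists had median GC contents of 45.9%, 48.3% and 41.9%, and the class from 41.7% to 47.7%, in which the replication list's median falls, had a median log2 fold change of 0.25. By chromosome the share of higher genes ran from 21.1% on chromosome 19 to 53.8% on chromosome 18. By mean CPM over the 4 libraries, a value the rule also used and to which the E6R libraries contribute, it went from 31.3% at 20 to 50 CPM to 50.4% at 500 CPM or more. The E6R libraries were also the deeper ones; the part of composition, abundance and depth in the single differences was not tested.

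**Figure D5:**
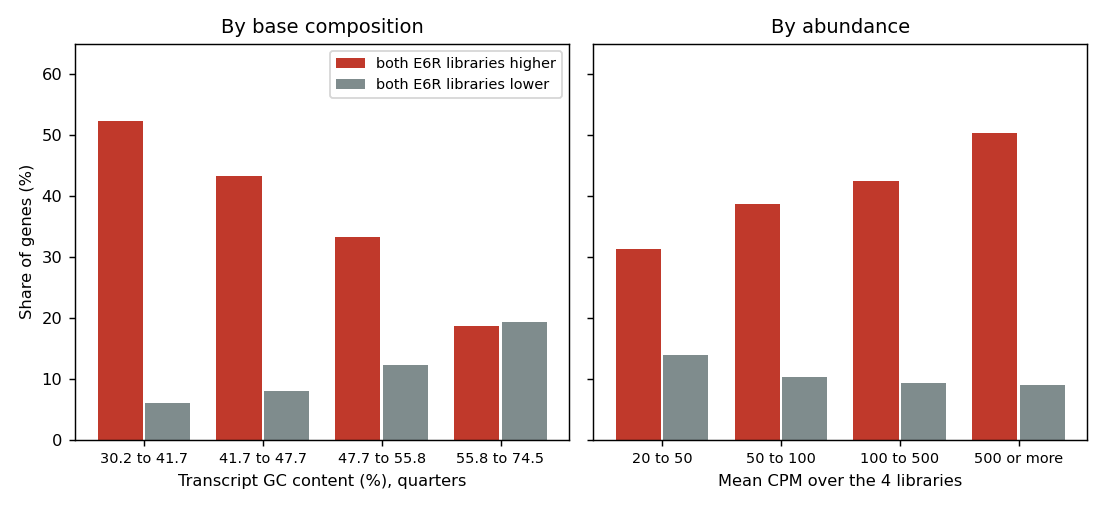
Percent of genes with both E6R libraries above (red) or below (grey) both DMSO libraries, by 4 equal classes of transcript GC content in percent (left, nuclear genes) and by mean CPM (right). The share of higher genes goes from 52.4% to 18.7% across the GC classes and from 31.3% to 50.4% with abundance.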

How the data were processed

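The authors deposited matrices of UMI counts per gene and barcode for the 6 libraries; per the submitters' processing notes STARsolo 2.7.9a and GRCh38 were used. The strand setting of the counting is not given in the sources used here, so overlapping genes on opposite strands (RBBP4 and SYNC, MYCN and MYCNOS, KCNQ1OT1 and KCNQ1, SCAT8 and EYS) may share reads.

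Barcodes with at least 500 genes and at most 20% mitochondrially encoded UMIs were kept, with no doublet caller; counts were summed per library (4206366 to 26180262 UMIs). Genes were filtered with filterByExpr and tested with edgeR 4.0.16 (R 4.3.3; TMM, quasi-likelihood, treatment only, all 6 libraries, Benjamini-Hochberg threshold 0.05). Alternatives included DESeq2 1.42.0, other scalings, filters and thinning, and leaving out libraries. The fit was tested on simulated counts first. Sequence features were taken from GENCODE 29 and RefSeq. Precision is limited by counting error and by having 2 libraries per group.

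The genes and the 35 lists were chosen with earlier results of these data known. Named genes were the 10 with the largest positive and negative fold changes and the 6 with the smallest p in each direction, up to 4 per list, and TFRC, MYCN, HDAC1, HDAC2, MKI67 and the 13 mitochondrial genes, of which only some are printed. FTH1, FTL, IREB2, PCNA, TIPIN, H1F0, DDX1, NBAS, MAX, KDM1A, MCM2 and some other examples fall outside that rule and were named after their values were seen.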

Additional observations from a re-analysis of the deposited data

How the results depend on the processing

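The number of genes called for E6R against DMSO was 0 with TMM and depended on the model. It was 1095 with no filter on low counts, 361 with DESeq2 and 19 with the replicate block. It was 1 with all deposited barcodes and 1 without mitochondrial and ribosomal protein genes. Leaving out 1 library gave 0 to 3, with TFRC, AC073140.1 and CRH called without E6R replicate 1 and GACAT3, TFRC and MUC3A without E6R replicate 2. Some alternatives were chosen after seeing the data: 1 gene was called without cells whose barcode was in another library, 1 without the 1% of cells with most UMIs, and 1190 with the 4 libraries and the replicate block. Deviations of same-numbered libraries correlated at r = 0.579 between DMSO and E6R, 0.25 between DMSO and TSA and 0.175 between E6R and TSA across 7431 genes; the labels do not say what a number shares. The number of higher genes was 1582 with thinned cells, 922 at a mean of 100 CPM or more, and 4067 to 4675 leaving out 1 DMSO or E6R library, where fewer libraries must be apart. The number of lower genes was 1446 with total counts alone, 525 with all deposited barcodes, 197 at 100 CPM or more, and 1024 to 1559 leaving out 1 library. The mitochondrial share differed by -4.75 percentage points in cells of 300 or more genes, -5.55 in all deposited barcodes and -4.12 in thinned cells, and by -4.67 to -4.29 leaving out 1 library. H1F0 turned to -0.084 with total counts alone, -0.064 with thinned library sums and -0.00036 without shared barcodes, and lay between -0.093 (no DMSO replicate 1) and 0.42 leaving out 1 library. FTL turned to 0.032 and 0.16 on leaving out DMSO replicate 1 or E6R replicate 2 and lay between -0.45 and 0.16; the cause was not tested. The log2 fold changes of the other single genes tried kept their direction; some list medians and counts turned with the scaling, as given beside those lists.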
